A study of Mus musculus with 6 samples.

Results

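Cytosolic ribosomal protein genes encode the protein parts of the ribosome that works in the cytoplasm. They were chosen by name: every gene with a probe set that lists a single symbol of the form Rpl or Rps with a number (and at most 1 further letter a, x, l or y), together with Rplp0, Rplp1, Rplp2 and Rpsa. Rps27l and the Rps6k kinases were left out, and each gene was read from its probe set with the highest mean signal. This gave 58 of the 19938 genes that have a single-symbol probe set, 37 of the large subunit and 21 of the small subunit. Of these, 55 passed the filter on dim probe sets, 34 large and 21 small. The rule uses gene names and brightness, and no difference between the groups.

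The ribosome translates messenger RNA (mRNA) into protein. Its small subunit reads the mRNA and its large subunit joins the amino acids, and the proteins of both subunits are needed in nearly equal numbers per ribosome, so their mRNAs are among the most abundant in dividing cells. Many of these mRNAs start with a run of pyrimidines, the 5' terminal oligopyrimidine (5' TOP) tract, through which mTOR signalling controls their translation. Loss of 1 copy of some of these genes is known to cause anaemia and malformations of the head, limbs and tail, in part through p53.

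RNA came from 6 mouse embryos aged E10.5 (embryonic days), whose heads were dissected down to the prosencephalon and mesencephalon (forebrain and midbrain), on the C57Bl6 background. There were 3 heads labelled wild type (WT) and 3 labelled Taspase1 knock-out (KO, Tasp1-/-), all from intercrosses of Tasp1+/- parents, and each head is a separate biological replicate per the labels. Taspase1 is a protease whose known substrates include the Kmt2a and Kmt2b proteins and a subunit of the general transcription factor TFIIA. The deletion is not stated to be limited to a cell type, and the study asked which genes Taspase1 regulates in development. Each head was hybridised to 1 Affymetrix array from 100 ng of total RNA. Values are log2 signals, so a difference of 1 is a doubling, and each difference subtracts the WT-labelled mean from the KO-labelled mean, with its standard error (SE) from limma. An adjusted p is that of limma with Benjamini-Hochberg adjustment over the 11802 genes tested, and a gene is called when it is under 0.05.

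The array medians over all probe sets ran from 7.35 to 7.45, and the heads correlated at 0.989 to 0.996 over the 11802 genes tested. Tasp1 itself did not back the labels. Its signal was 8.10, 8.45 and 8.49 in the WT-labelled heads and 8.63, 8.63 and 8.50 in the KO-labelled heads, a difference of 0.24 (limma adjusted p = 0.675). Where its probes lie relative to the deleted stretch was not checked, so the genotype is taken from the labels alone and every direction below is one between labelled groups. Xist, the RNA that coats an inactive X chromosome, was at 12.3 in WT 2 and between 4.90 and 5.24 in the other heads. Among forebrain and midbrain markers 9 passed the brightness filter, and their differences between the groups are given at the end. Of 5 hindbrain markers, Egr2, Hoxa2 and Hoxb4 were below the brightness filter, while Gbx2 and Hoxb1 passed it.

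The start regions of these genes carry the features that the family is known for, and a few are shown because they bear on the members described below. Windows of 250 bases before to 50 bases after the annotated start were taken from RefSeq (build GRCm38.p6), and 46 of the 58 genes had at least 1, in 54 windows. The annotated start was a C followed by at least 4 pyrimidines (C or T) in 10 of the 54 windows (18.5%). Of the windows of all genes, 2.51% had such a start. The run of pyrimidines could reach back before the start, as it did in Rps6 and Rps10. The members with such a start were Rpl14, Rpl28, Rpl32l, Rpl38, Rplp2, Rps10, Rps15a, Rps18, Rps21 and Rps6. A run of at least 7 pyrimidines within 10 bases of the start was found in 33.3% of the members' windows and in 12.2% of all. Stretches from 50 bases before to 30 bases after the start are given 5' to 3' for 3 members, with the pyrimidine run in capitals. Rps6, whose protein is the target of the S6 kinases, lies on the minus strand at chr4:86857338-86857417, and its run of 10 bases starts 1 base before the annotated start. In Rps10 (minus strand, chr17:27635215-27635294) a run of 13 bases starts 3 bases before it. In Rps12 (minus strand, chr10:23787180-23787259) the run of 11 bases starts 9 bases inside the annotated transcript.
Rps6: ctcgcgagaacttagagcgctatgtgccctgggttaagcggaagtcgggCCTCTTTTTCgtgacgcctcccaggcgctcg
Rps10: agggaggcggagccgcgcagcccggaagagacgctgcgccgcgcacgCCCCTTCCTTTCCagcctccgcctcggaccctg
Rps12: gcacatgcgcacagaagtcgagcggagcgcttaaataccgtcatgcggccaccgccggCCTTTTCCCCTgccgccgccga

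The 6 bases CTTCCG, the core that factors of the ETS family bind, were searched on both strands. They were present in 33 of the 54 windows (61.1%), against 16.9% of the windows of all genes, and in 52.9% of large subunit and 75% of small subunit windows. Of the other short motifs searched on both strands, AAGATGGC (the YY1 core) was in 3.7% of the members' windows against 2.75% of all, TATAAA in 11.1% against 13.6%, and CACGTG (the E-box that MYC binds) in 13% against 7.15%. A match is a description of the letters and not a bound site. A pair of members with CTTCCG in capitals, on either strand, is shown. Rpl37a, the member with the smallest p in the comparison of the groups, lies on the plus strand at chr1:72711210-72711289 and has 2 matches, the first 40 bases before the start. Rpl38, a gene of mouse patterning, lies on the plus strand at chr11:114668530-114668609 and has 2 matches in the reverse orientation, the first 19 bases before the start.
Rpl37a: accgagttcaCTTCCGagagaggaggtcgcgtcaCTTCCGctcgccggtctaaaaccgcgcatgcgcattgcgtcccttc
Rpl38: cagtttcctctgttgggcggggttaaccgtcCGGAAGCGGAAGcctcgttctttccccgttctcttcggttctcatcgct

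The difference between the labelled groups was small across these genes. Of the 55 members tested, 0 had a limma adjusted p under 0.05 (background: 0% of all 11802 genes), and the smallest adjusted p of a member was 0.228. At an unadjusted limma p under 0.05, 3 members were lower (Rpl37a, Rplp1 and Rps12; 5.45% of members, against 4.65% of all genes) and 0 were higher (against 2.47% of all genes; 7.13% in either direction). The groups did not overlap for 4 members (7.27%, against 12.3% of all genes): Rpl37a, Rplp1 and Rpl9 lay lower (7.81% of all genes did) and Rpl14 higher (4.52% of all genes) in every KO-labelled head. The members' shares were thus close to those of all genes or under them. The differences ran from -0.19 for Rpl37a to 0.13 for Rpl14, and 49 of the 55 were smaller than 0.1 in size. For 48 members the 95% confidence interval lay within 0.2 on either side of 0, that is between 0.871 and 1.15 times the WT-labelled level. The intervals of Rpl14, Rpl34, Rpl37a, Rps12, Rps14, Rps21 and Rps4l reached beyond it.

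These probe sets are brighter and less variable than most. The median signal was 12.01 over the members and 9.12 over all genes, and 28 members had a mean of 12 or more, as did 1.94% of all genes. The median size of a difference was 0.031 in members and 0.050 in all genes, and the median SE was 0.045 against 0.066. Bright probe sets can approach the top of an array's range, where a difference in RNA shows as a smaller difference in signal. Whether that happened here was not tested. In bulk tissue, fewer cells of a type and less RNA per cell cannot be told apart.

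**Figure D1:**
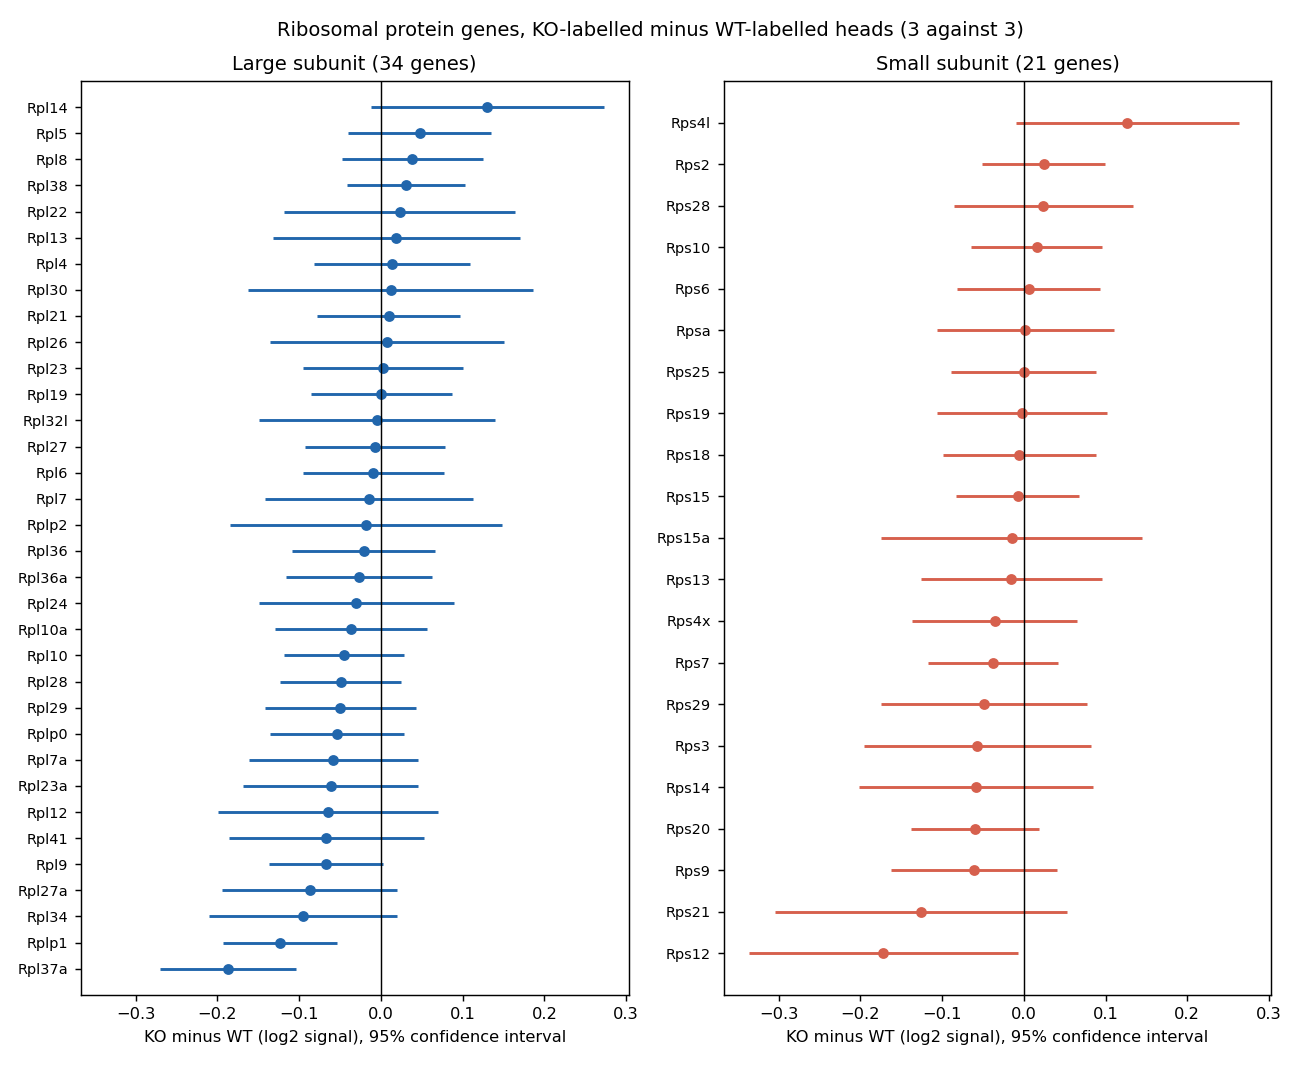
The KO-labelled minus WT-labelled difference in log2 signal (x axis) with its 95% confidence interval from limma, for 34 large subunit genes (left) and 21 small subunit genes (right), 3 heads against 3. The intervals of Rpl37a, Rplp1 and Rps12 lie below 0, the other intervals include 0, and the points run from -0.19 to 0.13.

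More members had a lower than a higher mean in the KO-labelled heads, but that count depended on single heads and on the scaling. With the deposited values 37 of 55 were lower (67.3%, against 55.4% of all genes) and 18 higher, with a median difference of -0.016 against -0.0092 over all genes. After quantile normalization 32 were lower (58.2%, against 61.1% of all genes), and after centring each array on its median 50 were lower (90.9%, against 69.0% of all genes, whose median then stood at -0.036). Without WT 1 only 23 members were lower, and their median difference was 0.011. Without KO 1 it was 26, with a median of 0.0043, and without KO 3 it was 44, with a median of -0.035. The sign of the list's median thus turned on 1 head of either group.

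The heads within a group differed more than the groups did. Each gene was centred on its own mean over the 6 heads, and the median over the members was 0.062, -0.011 and -0.0085 in WT 1 to 3 and -0.051, -0.0039 and 0.029 in KO 1 to 3. WT 1 was thus the highest head and KO 1 the lowest, while KO 3 was above WT 2 and WT 3. WT 1 held the highest value of 31 of the 55 members and KO 1 the lowest of 28, against 29.6% and 13.0% of all genes. The group means of these medians were 0.014 ± 0.041 in WT-labelled and -0.0086 ± 0.040 in KO-labelled heads (SD, n = 3 each), so their gap was smaller than the spread within either group. Over all genes tested the same medians stayed between -0.028 and 0.014. WT 1 also stood farthest out on the first principal component of all genes, at -13.3 against -1.06 to 6.20 in the other heads; its part in the members' levels was not tested.

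Large and small subunit genes had the same heads at the top and at the bottom. Among the large subunit genes 22 were lower and 12 higher, with a median of -0.020, and among the small subunit genes 15 were lower and 6 higher, with a median of -0.015. The large subunit median was 0.0047 below the small subunit median. In the heads, the large subunit median stood at 0.059, -0.0075 and -0.0077 in WT 1 to 3 and at -0.054, -0.013 and 0.030 in KO 1 to 3. The small subunit median stood at 0.064, -0.024 and -0.0085, and at -0.049, 0.013 and 0.0043. No head set the subunits far apart. The large minus small gap was 0.0041 ± 0.011 in WT-labelled and -0.0017 ± 0.026 in KO-labelled heads (SD, n = 3 each), and it was at most 0.026 in size in any head. By the probe set kept per gene, all 4 members without overlap between the groups belonged to the large subunit. They were 3 lower and 1 higher of 34, or 11.8%, against 12.3% of all genes. None of the 21 small subunit genes was without overlap by that probe set. These counts depended on the probe set kept. A dimmer probe set each of Rps12, Rps4l and Rpsa was without overlap, as was, in the large subunit, that of Rpl23. The difference in counts between the subunits was not tested.

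**Figure D2:**
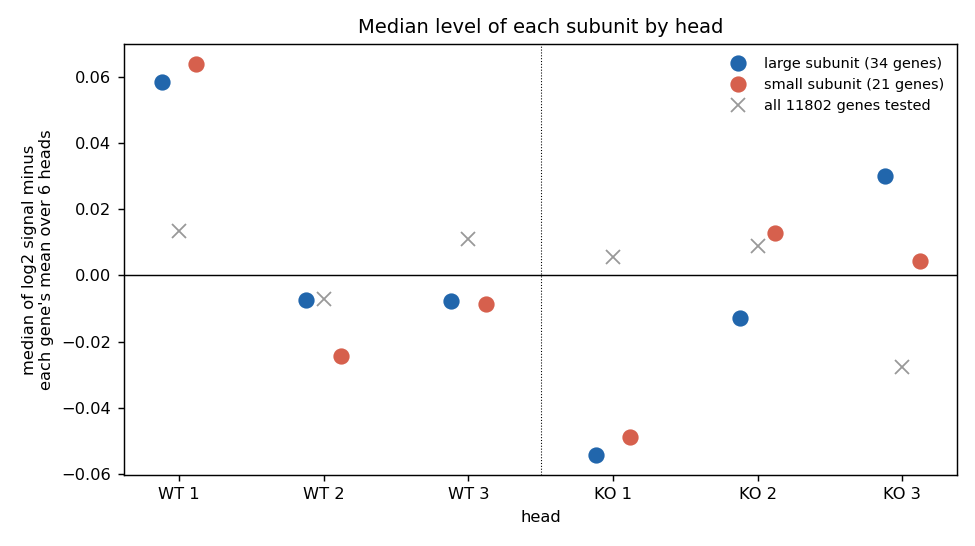
The median over large subunit genes (blue), small subunit genes (red) and all genes tested (grey crosses) of the log2 signal minus each gene's mean over the 6 heads (y axis), for each head (x axis). Both subunits stand highest in WT 1, at 0.059 and 0.064, and lowest in KO 1, at -0.054 and -0.049.

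The stalk of the large subunit, which recruits the GTPases of translation, is built from Rplp0 and the acidic proteins Rplp1 and Rplp2. Rplp1 read 13.14, 13.07 and 13.07 in WT-labelled and 12.96, 12.97 and 12.97 in KO-labelled heads. All 3 KO-labelled heads were below all 3 WT-labelled heads, and they lay within a hundredth of each other. The difference was -0.12 (SE 0.031), or 0.918 times the WT-labelled level (95% interval 0.875 to 0.964), with a limma adjusted p of 0.373. Its second, dimmer probe set gave -0.15 with overlap, since KO 3 (11.581) was just above WT 2 (11.578). Rplp0 read 13.35, 13.39 and 13.29 against 13.25, 13.34 and 13.29, and the groups overlapped (difference -0.054, limma adjusted p = 0.798). Rplp2 read 7.55, 7.42 and 7.35 against 7.37, 7.42 and 7.47, also with overlap (difference -0.018). Its probe set lies just above the filter, which was at 7.06, so its value is less certain than those of its partners.

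Rpl5 carries 5S rRNA into the large subunit together with Rpl11, and the free complex binds MDM2, which controls p53. Rpl5 read 12.59, 12.52 and 12.51 in WT-labelled and 12.54, 12.58 and 12.64 in KO-labelled heads. The groups overlapped, and the difference was 0.048 (95% interval -0.040 to 0.13, limma adjusted p = 0.837). All 5 of its probe sets gave a difference of 0.047 to 0.067. Rpl11 lay only on probe sets that list several symbols and has no value of its own here. In the list of the 5S complex and MDM2, 7 of the 8 genes tested were higher (median 0.063). That left 12.5% lower, against 55.4% of all genes. Of the list 0 were called, and only Ccng1 had an unadjusted limma p under 0.05 in the higher direction. Ccng1, a p53 target that encodes cyclin G1, read 11.04, 11.04 and 11.06 against 11.25, 11.63 and 11.76 (difference 0.50, limma adjusted p = 0.246). Mdm2 was higher in every KO-labelled head, by 0.092 (limma adjusted p = 0.755), and the assembly factor Heatr3 differed by 0.12 with overlap.

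Rpl37a, a zinc-finger protein of the large subunit, had the largest difference of all members. It read 12.11, 12.12 and 12.08 in WT-labelled and 11.93, 11.86 and 11.95 in KO-labelled heads. The groups were apart by more than the spread within each, 12.10 ± 0.020 and 11.91 ± 0.047 (SD, n = 3 each). The difference was -0.19 (SE 0.037), or 0.879 times (95% interval 0.829 to 0.931), with a limma adjusted p of 0.228. The exact two-sided permutation test gave p = 0.1, the smallest that 3 heads against 3 allow. It has 1 single-symbol probe set, so no second one speaks for it, and with a head left out in turn its difference stayed between -0.21 and -0.16.

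Rpl9, another large subunit protein, read 12.62, 12.63 and 12.64 in WT-labelled and 12.54, 12.56 and 12.59 in KO-labelled heads. Again the groups did not overlap, at a difference of -0.067, or 0.955 times (limma adjusted p = 0.729). All 8 of its probe sets were lower, with differences of -0.10 to -0.067. Rpl34 read 11.20, 11.28 and 11.33 against 11.11, 11.16 and 11.25, a difference of -0.095 with overlap. Rpl27a read 12.24, 12.16 and 12.16 against 12.03, 12.07 and 12.19, a difference of -0.087, and all 9 of its probe sets were lower. KO 3 lay within the WT-labelled range for both of these genes.

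Rpl14 was the only member higher in every KO-labelled head when each gene was read from its brightest probe set. It read 9.69, 9.75 and 9.75 in WT-labelled and 9.82, 9.99 and 9.76 in KO-labelled heads. KO 2 was the highest, and KO 3 exceeded the top WT-labelled head by about a hundredth. The difference was 0.13, or 1.09 times (limma adjusted p = 0.735), and without KO 2 it was 0.064. It rests on 1 probe set.

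Among the remaining large subunit genes named by rule, the 3 with the brightest probe sets hardly differed. Rpl10, whose protein lies near the site of peptide bond formation, differed by -0.045, Rplp0 by the value above and Rpl21 by 0.010. Of the dimmest, Rpl12, at the base of the stalk, read 9.22, 9.10 and 9.13 against 9.16, 9.05 and 9.05 (difference -0.065), and Rpl30 differed by 0.012. Rpl24 and Rpl38 are the genes of the mouse patterning mutants Belly spot and tail and Tail short. Rpl24 differed by -0.030 (limma adjusted p = 0.943) and Rpl38 by 0.031 (limma adjusted p = 0.891), and for both the groups overlapped.

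In the small subunit, Rps12 had the largest difference. It read 12.19, 11.91 and 11.96 in WT-labelled and 11.74, 11.86 and 11.94 in KO-labelled heads. In this brightest probe set the groups overlapped, because KO 3 was above WT 2. The difference was -0.17 (SE 0.074), or 0.888 times (95% interval 0.792 to 0.995), with a limma adjusted p of 0.683 and an exact two-sided permutation p of 0.2. Without WT 1 it was -0.086, so its size depended on that head. All 14 Rps12 probe sets were lower, with differences of -0.20 to -0.17, but they held only 8 distinct sets of values. In the dimmer probe set at -0.20 the groups did not overlap. Its highest KO-labelled value was 11.23 (KO 3) and its lowest WT-labelled value 11.26 (WT 2).

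Rps21 showed the same dependence on WT 1. It read 10.87, 10.53 and 10.68 in WT-labelled and 10.47, 10.61 and 10.62 in KO-labelled heads, a difference of -0.13 with overlap. Without WT 1 the difference was -0.038, and without WT 2 it was -0.21. Rps20 read 12.90, 12.89 and 12.84 against 12.77, 12.86 and 12.82 (difference -0.059), also with overlap. Rps4l, an autosomal paralog of Rps4x, leaned the other way, with 9.73, 9.65 and 9.57 in WT-labelled and 9.69, 9.82 and 9.82 in KO-labelled heads. KO 1 lay inside the WT-labelled range, the difference was 0.13, or 1.09 times (limma adjusted p = 0.735), and its 2 probe sets gave 0.13 and 0.17.

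Rps6, whose protein is phosphorylated when mTOR is active, read 13.40, 13.42 and 13.40 in WT-labelled and 13.34, 13.41 and 13.50 in KO-labelled heads. The KO-labelled heads lay on both sides of the WT-labelled ones, and the difference was 0.0059 (limma adjusted p = 0.985). Rps19, the gene most often mutated in Diamond-Blackfan anaemia, read 11.90, 11.83 and 11.78 against 11.81, 11.91 and 11.78. Its difference was -0.0026 (limma adjusted p = 0.995). Rps14, the gene tied to the anaemia of the 5q- syndrome, differed by -0.058, Rps3, at the entry of the mRNA channel, by -0.057 and Rpsa, also known as the laminin receptor precursor, by 0.0019. Among the brightest small subunit probe sets Rps2 differed by 0.024 and Rps15 by -0.0075, and among the dimmest Rps15a by -0.015. None of these genes had groups that were apart in the probe set used. The other Rpsa probe sets, all dimmer, gave -0.078, -0.070, -0.046 and -0.031, and in that at -0.070 the groups did not overlap. Rps24, Rps26 and Rpl35a, further genes of that anaemia, lay only on probe sets with several symbols.

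**Figure D3:**
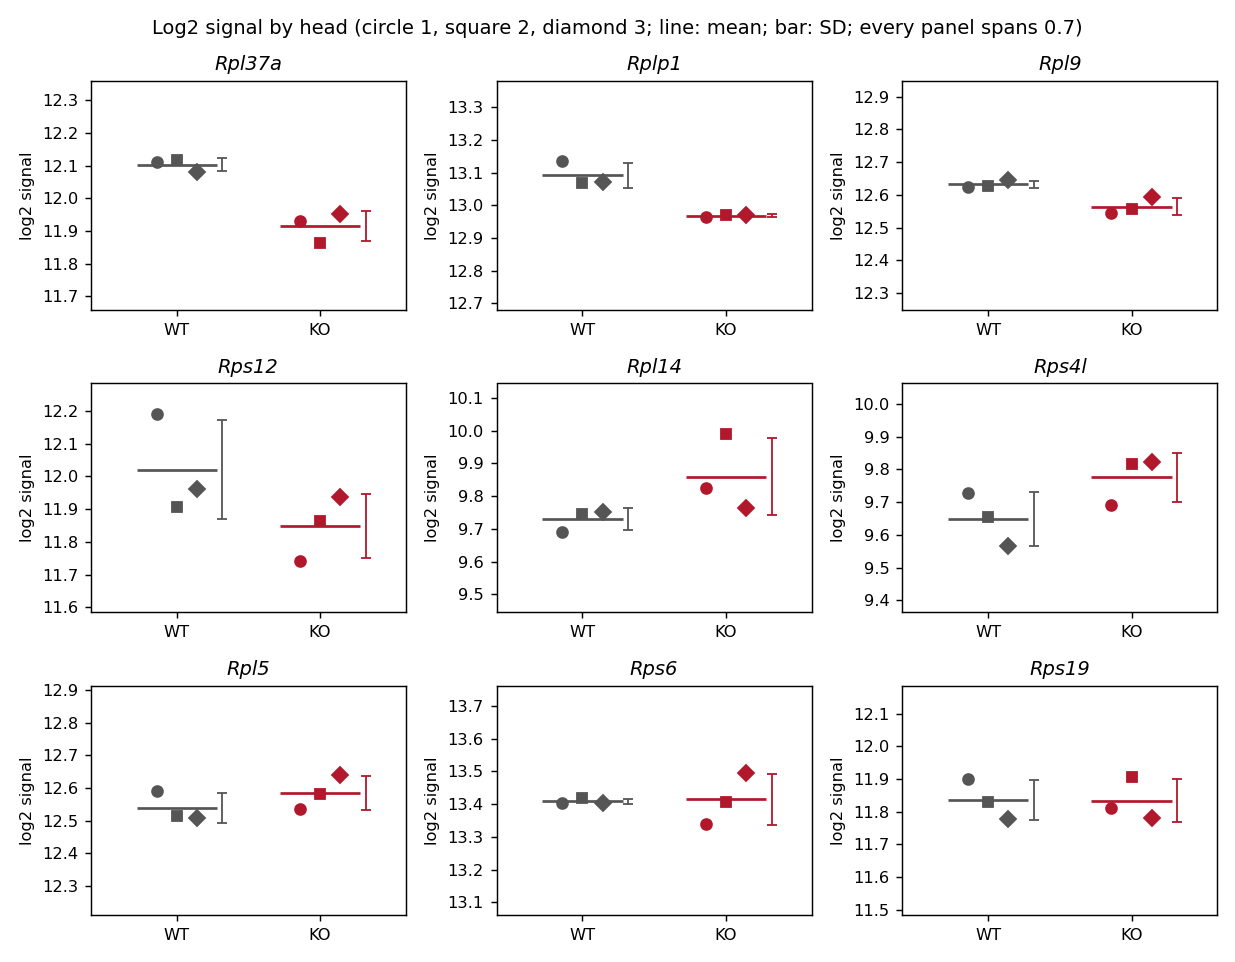
Log2 signal (y axis, every panel spans 0.7) by labelled group for 9 members, with each head as a point (circle 1, square 2, diamond 3), the group mean as a line and the SD as a bar. In the probe set kept per gene, Rpl37a, Rplp1 and Rpl9 are lower and Rpl14 higher in every KO-labelled head. With that probe set the groups overlap for Rps12, Rps4l, Rpl5, Rps6 and Rps19.

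By position, the tested and untested members lay on 17 chromosomes. Each chromosome is that of the gene symbol, and where the probe set itself lies was not checked. On the X chromosome, Rpl10 read 13.38, 13.37 and 13.37 against 13.27, 13.34 and 13.38, Rpl36a read 12.50, 12.39 and 12.44 against 12.39, 12.40 and 12.46, and Rps4x read 12.22, 12.15 and 12.09 against 12.10, 12.18 and 12.07. WT 2, the head with Xist signal, was neither the highest nor the lowest head for any of these genes. On chromosome 2, where Tasp1 lies, Rpl12, Rpl7a and Rps21 differed by -0.065, -0.058 and -0.13, all with overlap.

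Some members are copies known for use in particular tissues. Rpl10l and Rpl39l are known from the testis and Rpl3l from heart and skeletal muscle. All of them lay below the brightness filter: Rpl10l at 6.73 ± 0.15 in WT-labelled and 6.56 ± 0.20 in KO-labelled heads, Rpl39l at 4.50 ± 0.047 and 4.47 ± 0.034, and Rpl3l at 5.06 ± 0.15 and 4.92 ± 0.15 (SD, n = 3 each). The groups overlapped for each. Of 6 related genes outside the naming rule, 3 had a tested probe set. Rps27l, a p53-responsive paralog of Rps27, differed by 0.11 with overlap, whereas Fau, the gene of the small subunit protein eS30, and Rpl7l1 were lower in every KO-labelled head (differences -0.063 and -0.054, limma adjusted p = 0.774 and 0.809).

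Ribosomal protein genes have many processed copies in the genome, and most members were read more than once on this array. The 58 members had 214 single-symbol probe sets, a median of 3 per gene and up to 14 for Rps12, and 39 members had more than 1. For 30 of these 39 every probe set gave a difference of the same sign, and for 9 the signs were mixed. The widest range of differences within a gene was 0.080. Over all 214 probe sets 148 were lower and 66 higher, with a median of -0.030. Rpl13 is an example on the higher side, with all 9 probe sets between 0.014 and 0.065. These probe sets are not independent measurements, since near-identical copies can share probes, and 19 of them, in the 5 genes Rps12, Rpl41, Rpl23a, Rpl27 and Rps28, held exactly the same values as another. Where a probe matches a gene and its copy, the signal belongs to both. A further 233 probe sets list a ribosomal protein symbol beside others, with a median difference of -0.018 and a range of -0.27 to 0.14, of which 161 were lower and 72 higher. For 16 symbols, among them Rpl3, Rpl11, Rpl39 and Rps27, only such probe sets exist.

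**Figure D4:**
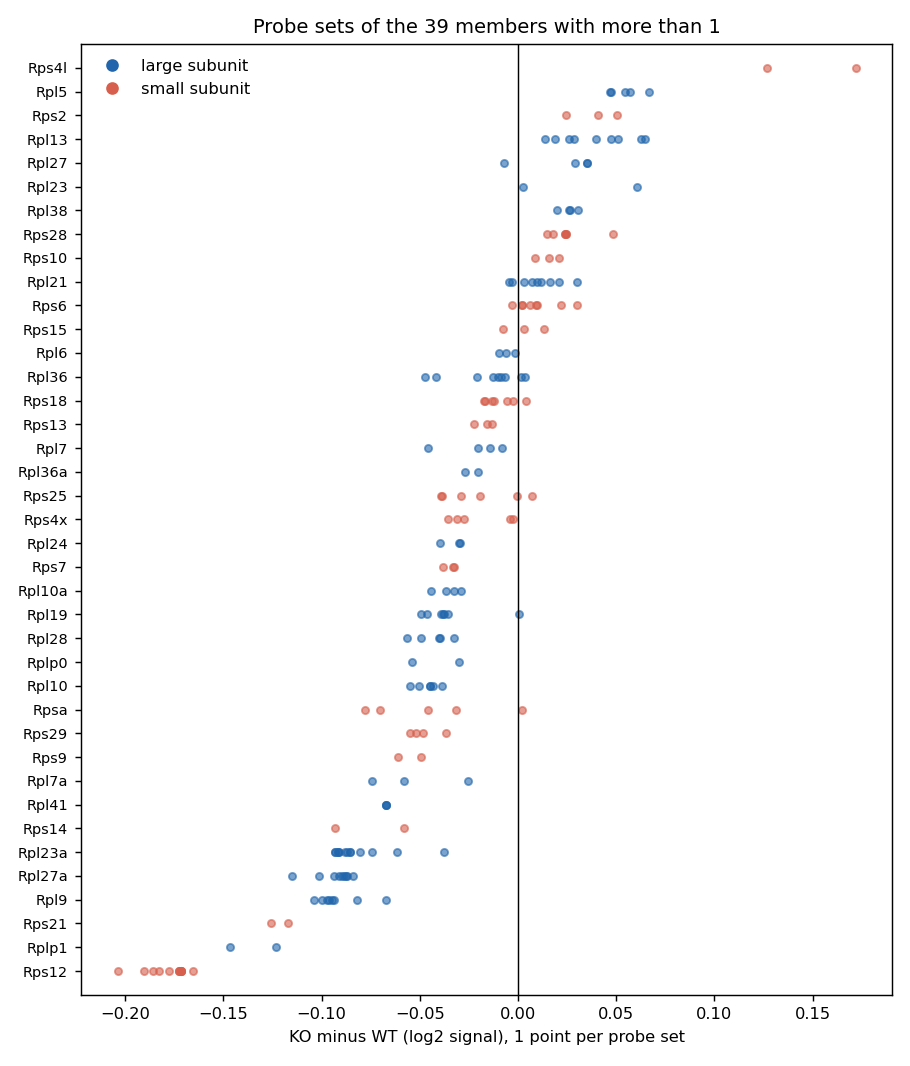
KO-labelled minus WT-labelled difference in log2 signal (x axis) for each single-symbol probe set (1 point each) of the 39 members with more than 1, ordered by their median (y axis). Points of a gene lie within 0.080 of each other, and 30 genes have all their points on 1 side of 0.

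The differences were also listed by these start-region features, as a description with no test. The 10 tested members with a C and at least 4 pyrimidines from the annotated start had a median difference of -0.0051, with 6 lower. The 33 other tested members with a window had -0.027, with 23 lower. For the run of at least 7 pyrimidines near the start the order was the other way round, with a median of -0.018 over 17 members with it (12 lower) and -0.0085 over 26 without it (17 lower). With CTTCCG the median was -0.015 over 30 members, and without it -0.0073 over 13.

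The groups of genes that work with the ribosome were described the same way, from lists of textbook members. Among translation factors and other mRNAs with a 5' TOP tract, 14 of 18 were tested, 8 were higher and 6 lower (median 0.018), and 0 were called. Tpt1, a classic 5' TOP mRNA, read 13.22, 13.13 and 13.15 in WT-labelled and 12.98, 13.00 and 13.04 in KO-labelled heads. It was lower in every KO-labelled head (difference -0.16, limma adjusted p = 0.269). Vim differed by -0.10 (limma adjusted p = 0.549), the elongation factor gene Eef2 by -0.043 and Eef1d by 0.10, each without overlap. In this short list 28.6% of the genes tested were without overlap, against 12.3% of all genes, and that gap was not tested.

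Ribosome biogenesis factors, which process rRNA and assemble the subunits, showed no call among 45 of 46 tested, with 27 higher and 18 lower (median 0.0083) and 0 at an unadjusted limma p under 0.05. Their smallest p-values belonged to Ncl, Bms1, Nob1 and Wdr75 (differences 0.073, 0.088, -0.082 and 0.067), all with overlap. RNA polymerase I and its factors, which transcribe the large rRNA precursor, split evenly, with 7 higher and 7 lower of 14 (median -0.013). Its subunit genes Znrd1 and Cd3eap were lower in every KO-labelled head (differences -0.11 and -0.099, limma adjusted p = 0.702 and 0.796), while Polr1c differed by -0.088 and Polr1a by 0.081 with overlap. In the mTOR list 11 of 16 tested genes were lower and 5 higher (median -0.025), and 0 had an unadjusted limma p under 0.05.

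Other large protein complexes had medians of a similar size. Of 77 mitochondrial ribosomal protein genes, which serve a separate ribosome, 47 were lower and 30 higher, with a median of -0.012 (-0.017 for 48 large and -0.0080 for 29 small subunit genes). The largest difference there was Mrpl48, with 9.43, 9.35 and 9.45 in WT-labelled and 8.89, 9.05 and 9.03 in KO-labelled heads (difference -0.42, limma adjusted p = 0.107). No cytosolic member differed by as much. Of 36 proteasome genes tested, 28 were lower and 8 higher (median -0.020), and the proteasome gene Psmd6 had the smallest p (difference -0.17, limma adjusted p = 0.549).

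Markers of other cells in the dissected tissue also differed in their means, though 0 of them were called. All 5 tested erythroid markers were lower in the mean of KO-labelled heads (median -0.13), but unevenly. The embryonic globin gene Hbb-bh1 read 12.80, 12.78 and 12.64 in WT-labelled and 12.57, 12.44 and 12.56 in KO-labelled heads (difference -0.21, limma adjusted p = 0.339), whereas the globin genes Hbb-y and Hba-x differed by -0.00050 and -0.022, Alas2 by -0.13 and Klf1 by -0.18, all with overlap. All 5 neuron markers were lower too (median -0.12), from -0.46 for Neurod1, which was lower in every KO-labelled head (limma adjusted p = 0.350), to -0.12 for Dcx with overlap. The median difference was -0.057 for forebrain and midbrain markers, of which 6 were lower and 3 higher. Lhx2 and Emx2 were lower in every KO-labelled head (differences -0.33 and -0.32, limma adjusted p = 0.228 and 0.472), and Dlx2 differed by -0.24 with overlap. The median was 0.0016 for mesenchyme and neural crest, 0.016 for endothelium, -0.072 for macrophages, -0.047 for surface ectoderm and -0.12 for the 2 hindbrain markers tested. Within these lists Sox10, C1qb and Epcam were lower in every KO-labelled head (differences -0.38, -0.30 and -0.11, limma adjusted p = 0.549, 0.365 and 0.755). Cdh1 was higher in every KO-labelled head (0.16, limma adjusted p = 0.668), and their other tested genes overlapped. The part of any of these cell types in the levels of ribosomal protein mRNA was not tested.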

How the data were processed

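The deposited table holds 1 log2 signal for each of 35556 probe sets on every array. Affymetrix Expression Console and MAS5 are named without versions or roles, per the submitters' processing notes; no source used here says how the authors scaled arrays or summarised probes. The log2 values were used as deposited, with no pseudocount. Of the probe sets, 21789 carried 1 symbol and 1621 several in the platform annotation. The 40% with the lowest mean (below 7.06) were left out, and the probe set with the highest mean was kept per gene, leaving 11802 genes. Groups were compared with limma 3.58.1 (lmFit, then eBayes with trend = TRUE, R 4.3.3, two-sided, Benjamini-Hochberg), a procedure that was also tested on simulated data. Only 3 heads per group limit the precision. Chromosomes came from RefSeq's gene table of GRCm38.p6. The members and all lists were chosen with earlier results of these data known, so lists are described by counts and medians with no test. The genes named were the 10 members with the smallest p, the 3 brightest and 3 dimmest of each subunit, genes of known roles, members on chromosome 2 or below the filter, up to 4 genes per related list, and members without overlap. Rpl13 and Mdm2, and genes named to spell out a count, were singled out after their values were seen. Alternatives were another scaling, filter, probe set rule or variance model, the sex chromosomes left out, the replicate block, and each head left out. Figures were drawn with matplotlib 3.10.9.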

Additional observations from a re-analysis of the deposited data

How the results depend on the processing

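No member had a limma adjusted p under 0.05 under any alternative run; the smallest of a member ran from 0.211 (genes on X and Y left out) to 0.999 (without KO 2). Over all genes, where 0 were called, quantile normalization called 1 (Caprin2), no filter 2 (Caprin2 and Mir9-1) and the 60% filter 1 (Caprin2), and leaving out a head called 0 to 6 (1 without WT 1, 6 without KO 1, none of them a member). The count of members lower at an unadjusted limma p under 0.05, which was 3, ran from 2 to 9 with a head left out (5 without WT 2, 9 without KO 3). The count of members higher at that p, which was 0, was 1 when probe sets were averaged per gene (Rps4l) and 0 to 1 with a head left out (1 without WT 1, KO 1 or KO 3). The count of members with a lower mean, which was 37, ran from 23 (without WT 1) to 44 with a head left out. The causes were not tested. Of 30 named members, the difference changed sign for 3 under quantile normalization, 5 under median centring, 2 with the mean of probe sets and 1 to 7 with a head left out. With the replicate number as a block, 0 genes were called, 2 members were lower at an unadjusted p under 0.05, the median difference of the members was -0.016, and the adjusted p of Rpl37a was 0.410. Heads of the same number did not deviate together (r of -0.17, -0.12 and -0.21 over genes), and for heads of unlike number r ran from -0.13 to 0.28. The deviations were taken from the mean of each group of 3 heads, which ties them to each other. These values therefore cannot show whether the numbers pair the samples. Shared probes among gene copies and the 3 heads per group limit what can be seen of small differences.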
